A study of Mus musculus with 12 samples.

Results

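Histone methyltransferases and demethylases, the enzymes that write and erase methyl groups on histone lysines and arginines, were described in normal colon of ApcMin mice. Members were chosen by gene symbol: the families Kmt, Kdm, Setd, Smyd, Prmt and Nsd, with Ezh1, Ezh2, Ehmt1, Ehmt2, Suv39h1 and Suv39h2, leaving out the sex-linked Kdm5c, Kdm5d and Kdm6a. A probe was kept when its signal was above the negative controls (detection p below 0.05) for 4 arrays or more among the 12. This left 56 probes of 33 genes, out of 79 probes of 41 genes with such symbols and out of 13497 kept probes of 9509 genes in all. The ApcMin strain carries a truncated allele of the tumour suppressor gene Apc and forms intestinal polyps, so both diet groups share that allele. One group was fed a diet sufficient in methyl donors, the controls, and the other a methyl deficient diet, both for 11 weeks. The labels name 2 sufficient animals, numbered 1 and 3, and 4 deficient animals, with a sample 1 and a sample 2 from each, which makes 4 and 8 Illumina bead arrays. Ages are not stated in the labels used here.

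The methyltransferases take the methyl group from S-adenosylmethionine, which cells make from methionine with the help of folate, choline and other dietary methyl donors. Methylation of histone H3 at lysine 4 and lysine 36 is found at active genes. Methylation of lysine 9 and lysine 27 is found at silent ones. The demethylases remove the marks, the Kdm1 enzymes with a flavin cofactor and the JmjC enzymes with iron and oxoglutarate.

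Signals below are on the normalised log2 scale. Differences are given as deficient minus sufficient. Signals of different probes are not on a common scale and were not compared with each other. Arrays of one labelled animal were not always of one sex: the Y-linked gene Eif2s3y was detected on 8 arrays and not on 4, and labelled animals sufficient 1, sufficient 3, deficient 3 and deficient 4 each held 1 array of each sex. The 2 arrays of such a labelled animal cannot both come from 1 mouse, so the means of these 4 units mix different mice. Each test is therefore given in both of these ways. The first uses means of the 2 arrays of a labelled animal. The second uses means of 2 arrays of the same sex within a diet (sex-matched pairs). Both set 2 units against 4. Sufficient arrays were 2 male and 2 female, and deficient arrays 6 male and 2 female. A probe is said to rise or fall only where its adjusted p is under 0.05 with both pairings. Tgm4, a gene of accessory sex glands, was detected on 4 male arrays, the sufficient male pair and deficient animal 2. All sufficient male arrays thus carry Tgm4 signal, while most deficient male arrays do not. Its part in differences among male arrays was not tested. Epithelial markers were present: 9 of 10 were kept, and their summed linear signal was 50130 to 56810 on sufficient and 46670 to 55780 on deficient arrays. These are whole colon samples, so fewer cells of a type and less RNA per cell cannot be told apart.

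No member rose or fell with diet. With labelled animals 1 of the 56 member probes (1.79%) passed the threshold, against 10.8% of all kept probes. It was Setd5, lower in the deficient colon. With sex-matched pairs 0 of 56 passed, against 0.282% of all probes, by limma with Benjamini-Hochberg adjustment. At an unadjusted p under 0.05 the members were 9 over labelled animals and 5 over sex-matched pairs, or 16.1% and 8.93%, beside 28.7% and 15% of all probes. The 12 arrays separated by diet for 1 member, Kdm1b, or 1.79%, beside 6.33% of all probes. Separation of all 12 arrays entails separation in the same direction on sample 1 arrays and on sample 2 arrays. No other member separated so on both, which left 1 (1.79%, beside 10.4% of all).

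The windows before the annotated start of 4 genes that the diet results turn on are shown for their CpG content. CpG is the site of DNA methylation. The genes are the only member past the threshold and the only one whose arrays separate. Added to them are the next largest difference in each direction among genes that have a window. Each window runs over the 250 bases before the gene's annotated start in RefSeq (GRCm38.p6). Its sequence is given 5′ to 3′ on the gene's strand, with each CG in capitals.
Setd5 (chr6:113104685-113104934, + strand): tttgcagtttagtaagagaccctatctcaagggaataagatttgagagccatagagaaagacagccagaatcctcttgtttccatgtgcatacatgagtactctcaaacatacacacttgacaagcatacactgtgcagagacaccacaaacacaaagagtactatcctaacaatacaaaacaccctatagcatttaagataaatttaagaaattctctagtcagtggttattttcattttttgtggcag
Kdm1b (chr13:47043249-47043498, + strand): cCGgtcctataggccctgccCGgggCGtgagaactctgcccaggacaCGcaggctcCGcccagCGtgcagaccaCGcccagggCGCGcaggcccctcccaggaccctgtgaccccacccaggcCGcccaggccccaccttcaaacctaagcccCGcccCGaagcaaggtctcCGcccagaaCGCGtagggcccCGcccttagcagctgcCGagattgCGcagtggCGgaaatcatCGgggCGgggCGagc
Setd2 (chr9:110532347-110532596, + strand): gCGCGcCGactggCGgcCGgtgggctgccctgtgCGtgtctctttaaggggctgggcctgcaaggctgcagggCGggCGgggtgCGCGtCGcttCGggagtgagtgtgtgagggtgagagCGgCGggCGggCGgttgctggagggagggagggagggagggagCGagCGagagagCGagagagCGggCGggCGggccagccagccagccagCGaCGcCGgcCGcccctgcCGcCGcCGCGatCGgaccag
Kdm3a (chr6:71632918-71633167, - strand): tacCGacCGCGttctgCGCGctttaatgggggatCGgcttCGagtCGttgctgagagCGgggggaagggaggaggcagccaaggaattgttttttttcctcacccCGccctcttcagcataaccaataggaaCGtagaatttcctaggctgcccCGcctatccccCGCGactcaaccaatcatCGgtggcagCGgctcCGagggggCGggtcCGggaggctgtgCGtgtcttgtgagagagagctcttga

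The Setd5 window held 0 CpG, while those of Kdm1b, Setd2 and Kdm3a held 22, 31 and 20. For Kdm3a, which has 3 listed windows, the first is shown. Starts were taken as annotated, and whether transcripts in the colon begin there was not tested. The Setd5 window held 36.8% GC, against 71.6%, 76.0% and 59.6% for Kdm1b, Setd2 and Kdm3a. Its end, a T-rich stretch followed by cag, is like that of an intron. It may thus lie before an internal exon, and its 0 CpG is not read as that of a promoter. A window was found for 28 of the 33 genes, and its CpG count had a median of 16.5 (range 0 to 35) against a median of 6 over 27018 genes, with 26 of the 28 above that median. On either strand, the letters GGGCGG were found in 64.3% of member windows and 32.9% of all, CCAAT in 50% and 34.5%, ACGTG in 28.6% and 16.6%, CACGTG (which contains ACGTG) in 10.7% and 6.05%, and TATAAA in 3.57% and 13.0%. These are matches of letters in the window and were not tested. For CpG counts and letters alike the sets are unlike. Members had a kept probe in these samples, while the 27018 genes were not filtered by signal. No DNA methylation was measured in the files used here.

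Diet differences of the members were small beside those of all probes. Of the 56 probes 27 were higher and 29 lower in the deficient colon (6912 and 6585 of all 13497), with a median difference of -0.0056. The median absolute difference was 0.12 for members and 0.16 for all kept probes, and the 90th percentile was 0.34 against 0.48. One member reached 0.5 in absolute difference (1.79%, against 9.32% of all probes) and 0 reached 1 (against 1.3%). The spread was alike: the median SD of single arrays about their diet mean was 0.20 for members and 0.21 for all probes. The 95% interval of the difference lay within ±1 for 55 of 56 probes over labelled animals and 56 of 56 over sex-matched pairs, and within ±0.5 for 43 and 36. The exception at ±1 was the Nsd1 probe with the largest difference.

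**Figure D1:**
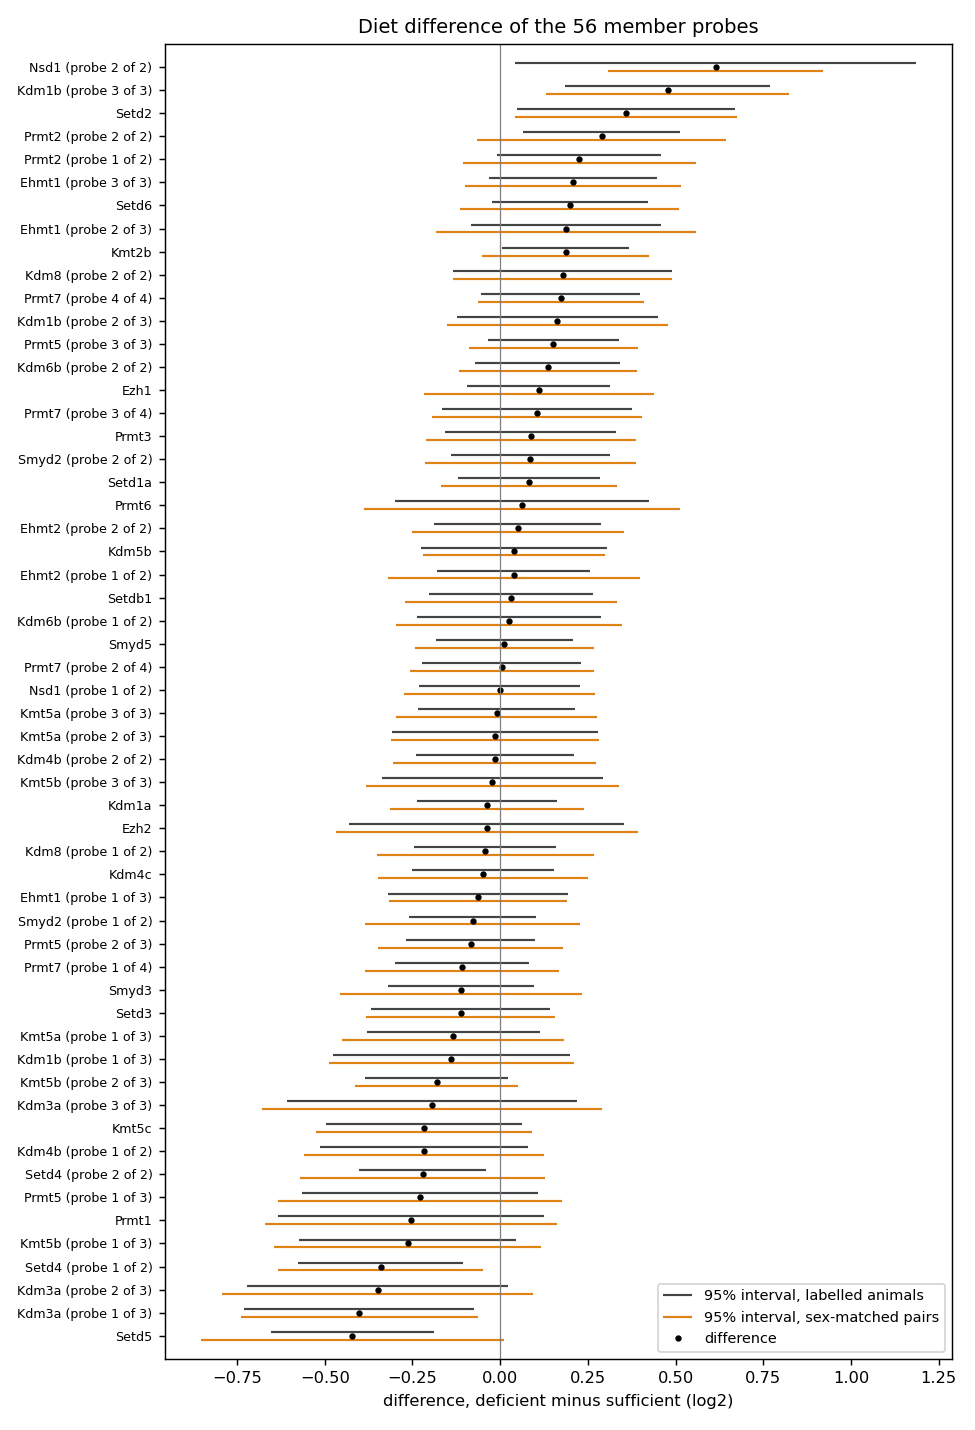
Diet difference (log2, deficient minus sufficient) of each of the 56 member probes, ordered by size, with the 95% limma interval over labelled animals (grey) and over sex-matched pairs (orange). Most intervals cover 0, and the points run from -0.42 for Setd5 to 0.61 for 1 of the 2 Nsd1 probes.

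Among the H3K36 methyltransferases, 2 genes were kept, Nsd1, which places the lower methylation states, and Setd2, which makes the trimethyl mark along transcribed genes. Nsd1 had the largest difference of all members on probe ILMN_1231734. Its sufficient signals were 5.32, 5.18, 6.05 and 6.52 on animal 1 samples 1 and 2 and animal 3 samples 1 and 2, and the deficient arrays ran from 5.98 to 6.68 with a median of 6.52. Both arrays of sufficient animal 1 lay below every deficient array, and both arrays of sufficient animal 3 lay within the deficient range. The difference was 0.61 (SE 0.25 and 0.13, adjusted p = 0.150 over labelled animals and 0.111 over sex-matched pairs). It was 0.41 among male and 0.92 among female arrays. Over labelled animals it was 0.09 without sufficient animal 1 and 1.13 without sufficient animal 3, each of which holds 1 array of each sex. Over sex-matched pairs it ran from 0.41 to 0.87 over the alternatives tried. The second Nsd1 probe, ILMN_2600763, was at 5.43 to 5.6 and 5.34 to 5.7, with a difference of -0.0013, so the 2 probes of the gene did not move together. Their correlation over the 12 arrays was r = -0.0092.

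Setd2 had sufficient signals of 5.36, 5.6, 5.66 and 5.93 in the same order, against 5.6 to 6.23 with a median of 6.05 in the deficient group. The lowest value of all was sample 1 of sufficient animal 1, and the groups overlapped. The difference was 0.36 (SE 0.13 and 0.14, adjusted p = 0.126 over labelled animals and 0.286 over sex-matched pairs), and 0.30 among male and 0.51 among female arrays. Over labelled animals the difference was 0.20 without sufficient animal 1, 0.52 without sufficient animal 3 and 0.43 (adjusted p = 0.0419) without deficient animal 2. When 1 sex-matched pair was left out instead, it stayed at 0.31 to 0.43. The members most like the larger Nsd1 probe over the 12 arrays were Setd2 (r = 0.84), Prmt5 probe ILMN_2983093 (r = 0.57) and Ehmt1 probe ILMN_2757855 (r = 0.53), which all share the same 12 arrays and their diet and sample order.

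Among the flavin-dependent demethylases, Kdm1b (LSD2), which removes H3K4 methylation and is known from mouse oocytes, was the only member whose 12 arrays separated by diet. Probe ILMN_3007898 read 9.97, 9.71, 9.77 and 9.76 on the 4 sufficient arrays and 9.99 to 10.64, with a median of 10.28, on the 8 deficient ones. The highest sufficient and the lowest deficient array were 9.97 and 9.99. The difference was 0.48 (SE 0.13 and 0.15, adjusted p = 0.0505 over labelled animals and 0.224 over sex-matched pairs), and 0.42 among male and 0.52 among female arrays. The exact permutation test over 6 units gave p = 0.0667 with both pairings, the smallest its 15 splits can give. The adjusted p with labelled animals ran from 0.0126 to 0.407 over the alternatives tried. Its other kept probes differed by -0.14 (ILMN_2632778) and 0.16 (ILMN_1237236), so the gene's 3 probes did not share a direction. Kdm1a (LSD1), the relative that works in the CoREST complex, was at 9.66 to 10.11 and at 9.66 to 9.99 (median 9.89), a difference of -0.038 (adjusted p = 0.813 over labelled animals and 0.902 over sex-matched pairs).

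**Figure D2:**
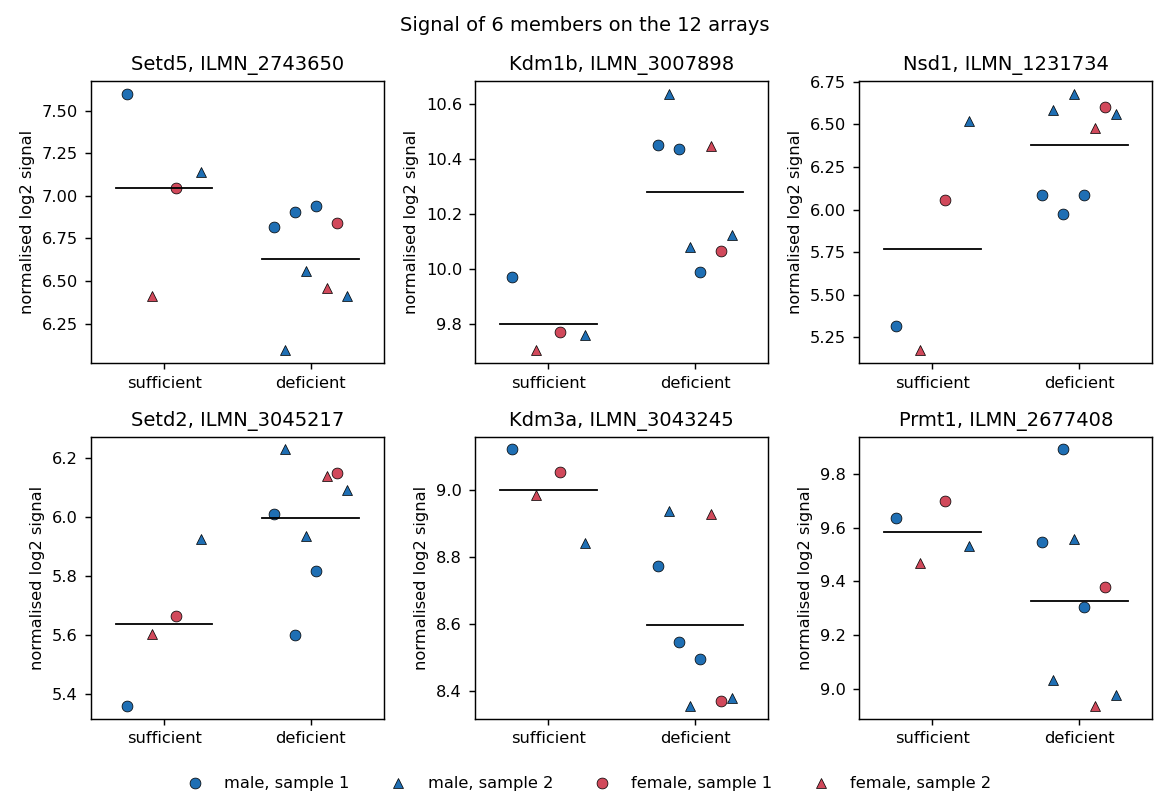
Normalised log2 signal of 6 members on each of the 12 arrays, by diet, with sex by colour, sample number by symbol and the mean of each diet as a line. Kdm1b is the 1 panel in which the diets do not overlap, while the highest Setd5 value and the lowest Setd2 value come from sample 1 of sufficient animal 1.

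Setd5, a SET domain protein of chromatin whose own methyltransferase activity is debated, was the only member past the threshold with labelled animals. Its signals were 7.6, 6.41, 7.05 and 7.14 on the 4 sufficient arrays and 6.09 to 6.94, with a median of 6.69, on the deficient ones. Sample 2 of sufficient animal 1 lay below the deficient median, while the other 3 sufficient arrays lay above every deficient array. The difference was -0.42 (SE 0.10 and 0.18, adjusted p = 0.0376 over labelled animals and 0.342 over sex-matched pairs). The exact permutation p was 0.0667 over labelled animals and 0.133 over sex-matched pairs. Within sexes it was -0.75 among male and -0.08 among female arrays, with an interaction adjusted p of 0.906. Without the sufficient male pair it was -0.10, -0.74 when the female one was dropped instead, and without the pairs that carry Tgm4 signal -0.13. On the authors' processed values it was -0.49, with an adjusted p of 0.0555 over labelled animals.

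The other SET domain and Smyd proteins kept were Setd3, Setd4, Setd6 and Smyd5. Setd3 methylates a histidine of actin, and Setd6 methylates a subunit of NF-kB. Setd4 probe ILMN_2670361 read 5.67, 5.36, 5.83 and 5.02 in the sufficient group and 4.85 to 5.29 (median 5.12) in the deficient group, with sample 2 of sufficient animal 3 inside the deficient range. Its difference was -0.34 (SE 0.10 and 0.12, adjusted p = 0.0710 over labelled animals and 0.275 over sex-matched pairs), and the second probe, ILMN_1242024, differed by -0.22. The first probe was detected on 3 of 4 sufficient and 2 of 8 deficient arrays, so most deficient values lie near background. Its difference was -0.61 on sample 1 arrays and -0.07 on sample 2 arrays, and -0.66 on the authors' processed values. Setd3 differed by -0.11, Setd6 by 0.20 and Smyd5 by 0.012, and none passed with either pairing.

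H3K9 demethylases gave 6 kept probes, and 0 passed with either pairing. All 6 probes of Kdm3a, Kdm4b and Kdm4c had negative differences, beside 6585 of all 13497 kept probes. Probes of 1 gene are not independent of each other. Kdm3a, a JmjC enzyme that removes the lower H3K9 methylation states, was measured by 3 probes. Probe ILMN_3043245 read 9.12, 8.98, 9.05 and 8.84 on the sufficient arrays and 8.36 to 8.94 (median 8.52) on the deficient arrays, with 2 deficient arrays, at 8.93 and 8.94, above the lowest sufficient one. The difference was -0.40 (SE 0.14 and 0.14, adjusted p = 0.109 over labelled animals and 0.268 over sex-matched pairs), and -0.40 among male and -0.37 among female arrays. The other probes read 8.71, 8.49, 8.81 and 8.3 against 7.38 to 8.6 (median 8.36), a difference of -0.35, and 9.99, 10.12, 10.28 and 9.89 against 9.37 to 10.32 (median 9.84), a difference of -0.19. The 3 probes correlated at r = 0.69 to 0.84 over the 12 arrays. Kdm4b differed by -0.22 and -0.015 on its 2 probes and Kdm4c by -0.049.

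None of the 6 probes of H3K9 methyltransferases passed with either pairing. Ehmt2 (G9a) and its partner Ehmt1 (GLP) dimethylate H3K9, and Setdb1 makes the trimethyl mark at retroelements. Ehmt2 was measured by 2 probes that correlated at r = 0.93. Probe ILMN_2705367 read 9.38, 8.85, 8.89 and 9.21 in the sufficient group and 8.92 to 9.46 (median 9.05) in the deficient group, a difference of 0.039 (adjusted p = 0.824 over labelled animals and 0.926 over sex-matched pairs). Probe ILMN_3147724 lay at 8.61 to 9.03 and 8.61 to 9.26 (median 8.74), a difference of 0.05. In both probes the sign differed by sex, with 0 interactions past the threshold. The differences were -0.23 among male and 0.42 among female arrays, and -0.13 among male and 0.32 among female arrays. Without the pairs with Tgm4 signal, which hold all sufficient male arrays, they were 0.30 and 0.23 for the 2 probes. Ehmt1 probe ILMN_2683675 read 9.16, 8.6, 8.74 and 8.75 and 8.85 to 9.25 (median 9.02), a difference of 0.21 (adjusted p = 0.229 over labelled animals and 0.485 over sex-matched pairs), and its other probes differed by 0.19 and -0.063. Setdb1 lay at 6.91 to 7.29 and 6.94 to 7.42 (median 7.17), a difference of 0.032 (adjusted p = 0.869 over labelled animals and 0.928 over sex-matched pairs).

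The H3K27 enzymes did not pass either. Ezh2, the catalytic subunit of Polycomb repressive complex 2 in dividing cells, read 7.04, 7.85, 8.06 and 7.88 on the sufficient arrays and 7.14 to 8.06 (median 7.87) on the deficient arrays. The difference was -0.038 (SE 0.17 and 0.18, adjusted p = 0.908 over labelled animals and 0.940 over sex-matched pairs), and the ranges of the groups were nearly the same. Its paralog Ezh1 lay at 5.17 to 5.3 and 5.07 to 5.63 (median 5.39), a difference of 0.11 (adjusted p = 0.454 over labelled animals and 0.737 over sex-matched pairs). Kdm6b (JMJD3), the inducible H3K27 demethylase, differed by 0.14 on probe ILMN_3023230 and by 0.025 on probe ILMN_3095624 (adjusted p = 0.359 over labelled animals and 0.584 over sex-matched pairs for the first, and 0.911 and 0.948 for the second). Its arrays are given with the sample numbers later.

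H3K4 enzymes spanned differences from -0.11 to 0.19. They were Kmt2b, a subunit of a COMPASS-like complex, Setd1a, the catalytic subunit of another, Smyd2 and Smyd3, and the demethylase Kdm5b. Kmt2b differed by 0.19, Setd1a by 0.082, Smyd2 by -0.078 and 0.086 on its 2 probes, and Smyd3 by -0.11. Kdm5b lay at 5.68 to 6.08 and 5.58 to 6.22 (median 5.88), a difference of 0.04 (adjusted p = 0.854 over labelled animals and 0.891 over sex-matched pairs). The H3K36 demethylase group held Kdm8, at -0.043 and 0.18 on 2 probes.

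All 7 probes of the 3 H4K20 methyltransferase genes had negative differences, beside 6585 of all 13497 kept probes, and 0 passed. Probes of 1 gene are not independent of each other, and 2 of the Kmt5a differences were near 0. Kmt5a, the monomethylase of the cell cycle, was at 8.11 to 8.64 and 8.02 to 8.69 on probe ILMN_2603825, a difference of -0.13 (adjusted p = 0.452 over labelled animals and 0.668 over sex-matched pairs), and its other probes differed by -0.014 and -0.0099. Those 2 probes lay at 8.48 to 8.72 and 8.37 to 8.99, and at 8.66 to 8.91 and 8.59 to 8.99. Kmt5b, which adds the further methyl groups, read 5.78, 6.22, 6.0 and 5.72 on probe ILMN_1250037 against 5.29 to 5.89 (median 5.69), a difference of -0.26 (adjusted p = 0.237 over labelled animals and 0.478 over sex-matched pairs). Its other probes differed by -0.18 and -0.023, and Kmt5c, with the same activity, by -0.22.

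Of 12 probes of arginine methyltransferases 8 were higher and 4 lower, beside 6912 and 6585 of all 13497 kept probes, and 0 passed. Prmt1, the main enzyme of asymmetric arginine dimethylation, read 9.63, 9.47, 9.7 and 9.53 on the sufficient arrays and 8.94 to 9.89 (median 9.34) on the deficient arrays. The highest and the lowest value both came from the deficient group. The difference was -0.25 (SE 0.16 and 0.18, adjusted p = 0.347 over labelled animals and 0.525 over sex-matched pairs), and without deficient animal 2 it was -0.39 with an adjusted p of 0.0260 over labelled animals. Prmt2, also of that class, had 2 probes that correlated at r = 0.89. They read 9.57, 9.02, 9.16 and 9.49 against 9.43 to 9.81 (median 9.61), a difference of 0.29 (adjusted p = 0.0968 over labelled animals and 0.410 over sex-matched pairs), and 9.79, 9.34, 9.42 and 9.72 against 9.57 to 10.05 (median 9.81), a difference of 0.23. In both, sample 2 of sufficient animal 1 was the lowest of the 12 arrays. The first probe differed by 0.09 among male and 0.43 among female arrays. Over sex-matched pairs, dropping the sufficient female pair gave 0.07 and dropping the male one 0.51. Prmt5, the main enzyme of symmetric dimethylation, had 3 probes with differences of -0.23, -0.084 and 0.15. They lay at 5.65 to 6.38 and 5.24 to 6.18, at 8.42 to 8.47 and 8.15 to 8.59, and at 8.48 to 8.64 and 8.59 to 8.78, and the adjusted p was 0.344, 0.531 and 0.261 with labelled animals. Prmt3 differed by 0.087, Prmt6 by 0.062, and the 4 probes of Prmt7 by -0.11 to 0.17.

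Among the 28 probes given in full, leaving out 1 labelled animal moved the difference by over 1.5 times or turned its sign for 17, and leaving out 1 sex-matched pair did so for 23. Kdm1b probe ILMN_3007898, Kdm3a probe ILMN_3043245 and Prmt5 probe ILMN_2983093 stayed within that factor with both pairings.

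Of 15 member genes with several kept probes, 8 had all differences in 1 direction and 7 did not. Male and female arrays gave differences of the same sign for 34 of 56 probes (60.7%), 19 higher and 15 lower in both, beside 62.4% of all probes. With sex as a covariate 0 members passed, against 0.0519% of all probes, and 6 were under an unadjusted p of 0.05 (10.7%, against 14%). The diet by sex interaction passed for 0 members and 0% of all probes. At an unadjusted p under 0.05 it held 2 members, or 3.57%, against 5.59%. Sex itself passed for 0 members, but the share over all probes is not given, so this is not read as absence of sex differences.

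**Figure D3:**
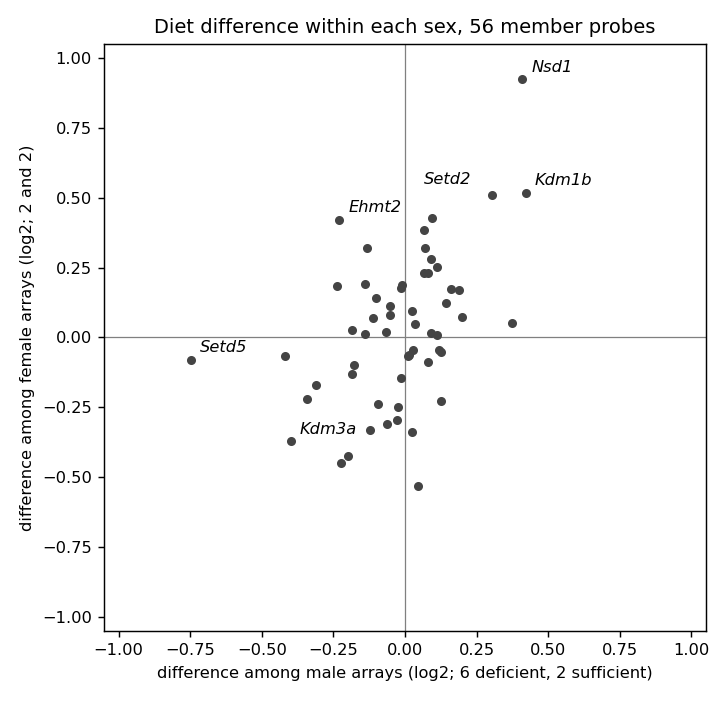
Diet difference (log2) of the 56 member probes among male arrays (6 deficient, 2 sufficient) against female arrays (2 and 2). Tgm4 signal was present on all sufficient male arrays and absent from most deficient male arrays. Nsd1, Kdm1b and Setd2 lie above 0 in both sexes and Kdm3a below 0 in both, while Setd5 lies at -0.75 among male and -0.080 among female arrays.

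The 23 probes that were not kept included every probe of 8 genes: Kdm2b, Kdm4a, Kdm4d, Prmt8, Prmt9, Setd7, Smyd1 and Suv39h2. All probes of these 8 genes were detected on 0 of the 12 arrays. None of the 79 probes with member symbols carried Suv39h1 or Kmt2a, so these genes were not analysed here.

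Genes that work with these enzymes were read from 5 lists: other histone methylation enzymes, subunits of PRC2, of COMPASS and of LSD1 and H3K9 complexes, and HP1 proteins with partners of Prmt5. Of 50 genes 36 were kept, and 0 passed with either pairing, beside 10.8% and 0.282% of all probes. Their median difference was -0.024. The largest differences were -0.31 for Rbbp7, a histone-binding subunit of PRC2, and 0.27 for Phf2, a JmjC protein, with adjusted p of 0.147 and 0.107 over labelled animals and of 0.509 and 0.425 over sex-matched pairs. Dot1l, the H3K79 methyltransferase, differed by -0.13 (adjusted p = 0.668 and 0.790). Eed and Suz12, the core partners of Ezh2, differed by -0.18 and -0.089.

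Marker lists of other cells were counted with both pairings in the same samples. Of the 10 genes of fibroblasts and matrix 7 passed as higher over labelled animals and 1 over sex-matched pairs, and the list's summed linear signal was 10510 to 13050 on sufficient and 11980 to 19080 on deficient arrays. For B and plasma cells 4 of 5 kept genes passed as lower over labelled animals and 2 over sex-matched pairs, at 1109 to 1320 against 238.9 to 488.7. For neutrophils 3 of 5 passed as lower over labelled animals and 0 over sex-matched pairs, at 2804 to 4088 against 468.4 to 1016. Of the immediate early genes 8 of 10 passed as lower over labelled animals and 5 over sex-matched pairs, at 19160 to 22430 against 6995 to 8874. Of the proliferation genes 4 of 11 passed as lower over labelled animals and 0 over sex-matched pairs, at 2723 to 4839 against 2145 to 3390. For T and NK cells 2 of 4 kept genes passed as lower over labelled animals and 0 over sex-matched pairs. No kept gene of smooth muscle (9), macrophages (4) or epithelium (9) passed with either pairing. The part of these differences in the members' values was not tested.

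For the median member the 2 samples of a pair differed by more than the diets did. This comparison, and the genes named in it, were chosen after the values had been seen. It sets sample 2 against sample 1 over the 12 arrays, with the sex-matched pair as a block, and both pairings hold 1 array of each number per unit, so that it cancels in the diet differences. The labels say only that duplicate samples were taken, and what sets sample 1 apart from sample 2 is not stated. Of the 56 probes 14 passed (25%), 6 higher and 8 lower on sample 2, beside 16.5% of all probes. The sign was the same in all 6 pairs for 15 members (26.8%), beside 21.6%. With labelled animals as the block 3 passed (5.36%), beside 1.16%. The median absolute difference was 0.18 for members and 0.12 for all probes, and it reached 0.25 for 19 members (33.9%, beside 17.4%). It exceeded the diet difference for 35 member probes (62.5%), beside 41.2% of all probes. The count of 14 fell to 8 without deficient animal 2 and to 9 without the deficient joined male pair (animal 3 sample 1 and animal 4 sample 2). It was 9 on the authors' processed values.

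Kdm6b had the smallest adjusted p on both of its probes, and the probes went in opposite directions. Probe ILMN_3023230 read 8.16, 8.03, 8.16, 8.08, 8.29 and 8.12 on sample 1 and 8.63, 8.73, 8.79, 8.79, 9.0 and 8.96 on sample 2 of animals sufficient 1 and 3 and deficient 1 to 4. The sample numbers did not overlap, and the difference was 0.68 (SE 0.067, adjusted p = 0.000647 with sex-matched pairs and 0.0219 with labelled animals as the block). Probe ILMN_3095624 read 7.51, 7.70, 7.41, 7.87, 7.82 and 7.70 on sample 1 and 7.21, 6.98, 6.87, 7.11, 7.11 and 7.10 on sample 2 in the same order, again without overlap. Its difference was -0.60 (SE 0.066, adjusted p = 0.000819 with sex-matched pairs and 0.0304 with labelled animals as the block). Over the 12 arrays the 2 probes correlated at r = -0.87.

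Of the 3 Ehmt1 probes, 2 also went in opposite directions. Probe ILMN_2757855 was at 5.13 to 5.95 on sample 1 and 5.81 to 6.5 on sample 2, a difference of 0.61 (adjusted p = 0.00756 with sex-matched pairs and 0.104 with labelled animals as the block). Probe ILMN_2603660 was at 6.52 to 7.07 and 5.94 to 6.65, a difference of -0.43 (adjusted p = 0.0381 with sex-matched pairs and 0.158 with labelled animals as the block). Setd3 was at 8.34 to 9.03 and 9.14 to 9.28, which did not overlap, with a difference of 0.46 (adjusted p = 0.00768 with sex-matched pairs and 0.0689 with labelled animals as the block). With the 2 Kdm6b probes it made 3 of 56 members (5.36%) whose 6 sample 1 arrays separate from the 6 sample 2 arrays, beside 2.47% of all probes. Ezh2 was at 7.04 to 8.06 and 7.85 to 8.06, a difference of 0.49 (adjusted p = 0.0208 with sex-matched pairs and 0.136 with labelled animals as the block). Setd5 was lower on sample 2 in 6 of 6 pairs, by -0.51 (adjusted p = 0.00160 with sex-matched pairs and 0.132 with labelled animals as the block), and Kdm1b probe ILMN_2632778 was higher in 6 of 6, by 0.46 (adjusted p = 0.00341 with sex-matched pairs and 0.0390 with labelled animals as the block).

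The other probes that passed were Prmt1 (-0.33), Smyd2 (-0.35), Kmt2b (-0.27), Kmt5a (0.28), Setd1a (-0.24) and Kmt5c (-0.37), with adjusted p from 0.0102 to 0.0382 with sex-matched pairs as the block and from 0.102 to 0.231 with labelled animals. Probes detected per array ran from 12609 to 13241 on sample 1 and from 12657 to 13221 on sample 2. Of the marker lists, 3 of 11 proliferation genes were higher and 1 lower on sample 2, and their summed signal was 2145 to 4717 and 2330 to 4839. The 10 genes of fibroblasts and matrix gave 2 that were higher and 1 that was lower, at 10510 to 18260 and 12180 to 19080. Macrophages gave 1 higher and 1 lower of 4, neutrophils 1 higher of 5, and smooth muscle and epithelium 1 lower of 9 each. The immediate early genes (10), B and plasma cells (5) and T and NK cells (4) gave 0. Over all probes 16.5% passed with sex-matched pairs as the block. The part of these lists in the members' values was not tested. A dependence of the diet difference on the sample number passed for 0 members and 0% of all probes, with 1 member (1.79%) against 4.82% at an unadjusted p under 0.05.

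**Figure D4:**
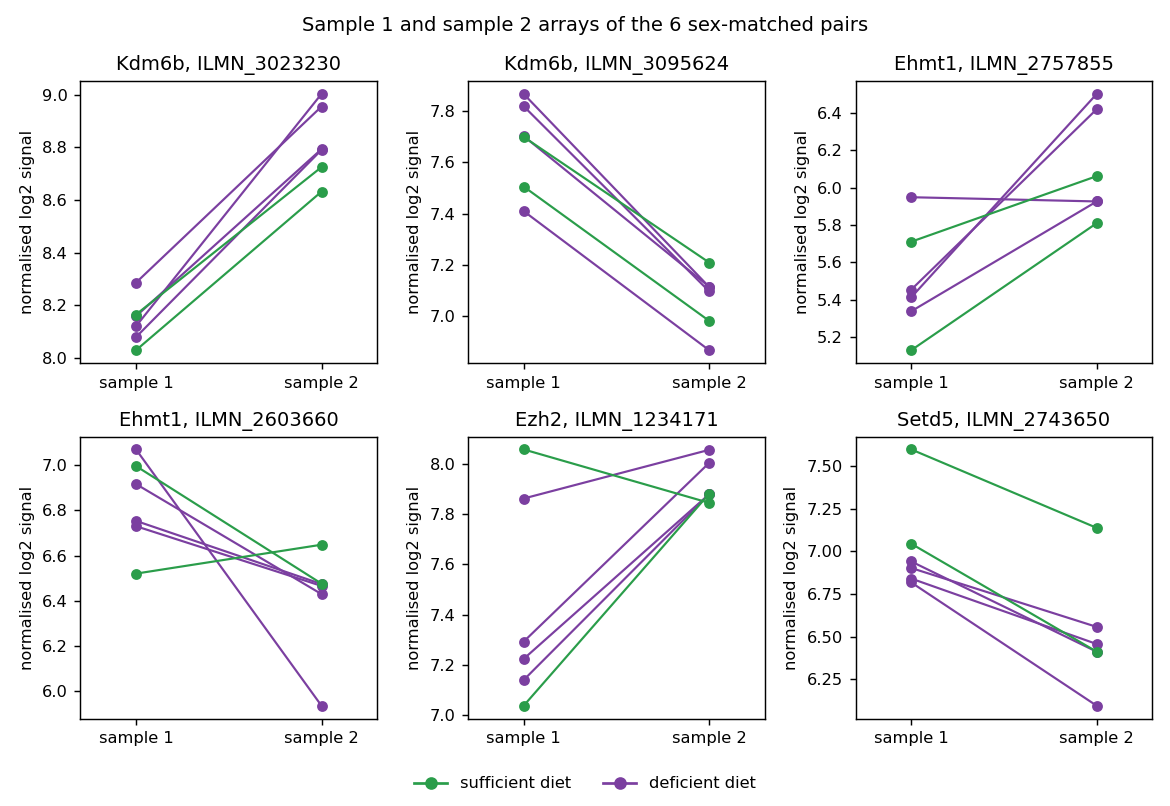
Normalised log2 signal on the sample 1 and sample 2 arrays of the 6 sex-matched pairs, coloured by diet, for both Kdm6b probes, 2 Ehmt1 probes, Ezh2 and Setd5. All 6 lines rise for Kdm6b probe ILMN_3023230 and all 6 fall for probe ILMN_3095624, in both diets.

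**Figure D5:**
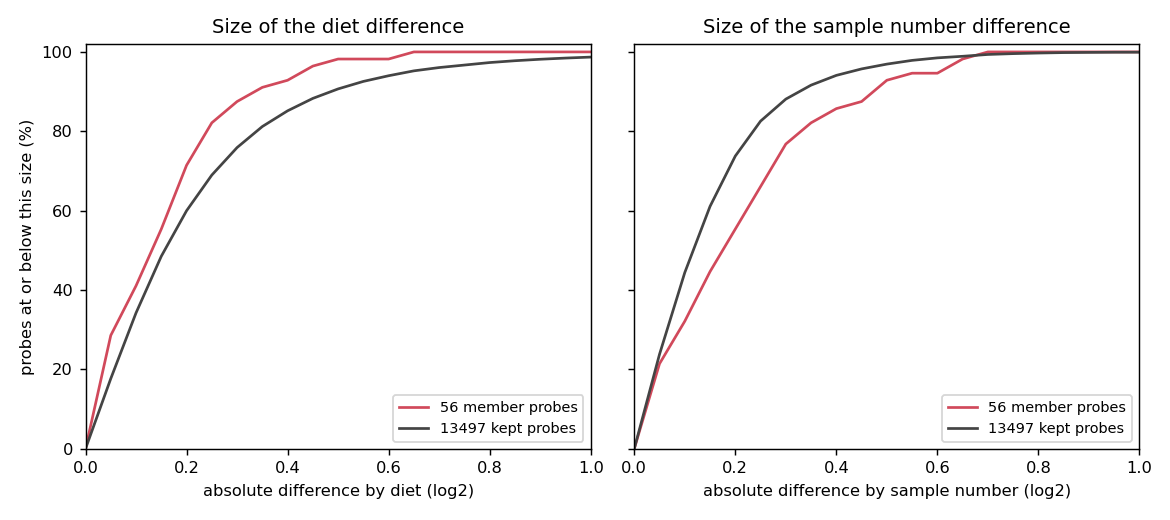
Cumulative share of probes (%) at or below a given absolute difference (log2), for the diet difference (left) and the sample 2 minus sample 1 difference (right), in the 56 member probes and all 13497 kept probes. The member curve lies to the left of the curve of all probes for diet (median 0.12 against 0.16) and to the right for sample number (0.18 against 0.12).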

How the data were processed

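Normal colon RNA was profiled on Illumina bead arrays, extracted with Trizol and amplified to biotinylated cRNA, per the labels' protocols. Per the file headers, the authors deposited the average bead intensity of each probe with a detection p-value beside it. The intensity is linear, and array medians differ, so no normalization shows in it. They also deposited processed log2 values, centred on each probe's median over the 12 arrays to within 1.47e-06; the normalization before that is not given in the sources used here, and they served as an alternative. Columns whose name ends in a prime were taken as sample 2 by name. Each processed log2 column, which is named by sample, correlated at 0.957 or more with its own deposited intensity column and at 0.737 or less with any other, over 9314 probes.

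The neqc function of limma 3.58.1 under R 4.3.3 corrected the background (offset 16, with the detection p-values standing in for negative controls), applied quantile normalization and took log2. Of 25697 probes 13497 (52.5%) had a detection p under 0.05 on at least 4 arrays. Array medians before normalization ran from 59.4 to 71.5, and 12609 to 13241 probes were detected per array. The number of animals limits the precision. Probes were named through the platform annotation.

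Means of 2 arrays per unit went into limma (lmFit, then eBayes; two-sided) with Benjamini-Hochberg adjustment over all kept probes and a threshold of 0.05. Units were labelled animals or sex-matched pairs. Deviations of the 2 arrays of a unit, over 12317 autosomal probes, correlated at -0.27 to 0.53 within labelled animals and at 0.37 to 0.73 within sex-matched pairs. In the labelled animals with arrays of both sexes the range was -0.27 to 0.07. Diet was tested with both pairings, with sex as a covariate and with its interactions with sex and sample number, and sample number with both blocks. Fits were also run on simulated data, with independent noise on every array and effects larger than any member's difference. They do not show how well differences of the members' size would be found.

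The members and lists were chosen with earlier results of these data known. Probes given in full were those past the threshold with labelled animals, those whose arrays separate by diet, the 6 largest differences in each direction, and a list of well-known members. For a gene with several kept probes, the one with the highest mean signal stood for it in counts over genes.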

Additional observations from a re-analysis of the deposited data

Results flagged for a closer look

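Among the 28 probes given in full, each diet group of 4 or 8 arrays was searched for a single array far from the rest, and 2 of 56 groups held one, where chance gives about 1 in 20. The Kdm3a probe ILMN_3118169 read 7.3753 on sample 2 of deficient animal 2, below the other 7 deficient arrays, which ran from 8.13 to 8.60. The Kmt5a probe ILMN_2603825 read 8.1122 on sample 1 of sufficient animal 1, while the other 3 sufficient arrays lay between 8.60 and 8.64.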

How the results depend on the processing

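The count of member probes past the threshold with labelled animals, 1 as reported, was 0 with sex-matched pairs, on the authors' processed values, and on sample 1 or sample 2 arrays alone, and 2 with no background correction, normexp without detection p-values, detection p under 0.01 on all 12 arrays, a variance trend, or a random block. Leaving out 1 animal gave 0 to 3. With the animal number as a replicate block 0 passed, and the animals share only that number. With sex-matched pairs the count was 0 except for 1 with all 12 arrays as separate samples and 1 with labelled animals in their place. The probes behind the counts changed as well. Setd5 passed in 8 fits with labelled animals, the main one included. With a random block Kdm1b (adjusted p = 0.0126) and Kdm3a probe ILMN_3043245 (0.0348) passed, and Setd5 (0.0921) did not. With 12 arrays as separate samples Kdm1b passed (0.0339), and Setd5 (0.2075) did not. The median member difference ran from -0.010 to 0.0149 when 1 labelled animal was left out and from -0.021 to 0.0216 when 1 pair was, and it was 0.0297 without the pairs with Tgm4 signal. The sample number count, 14, was 3 with labelled animals as the block, 9 on the authors' processed values and 8 to 15 when 1 pair was left out. Alternatives on single sample numbers, and all on the sample number count, were chosen after seeing the data. The cause of these shifts was not tested.

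Of the 28 probes given in full, 22 passed under no setting with labelled animals and 26 under none with sex-matched pairs. None that changed sign passed under any setting. On sample 2 arrays only, signs turned to 0.0917 for Ezh2, 0.0562 for Kdm1a, 0.0305 for Kmt5a (ILMN_3001076), -0.0473 for Kdm6b (ILMN_3095624), -0.0376 and -0.0246 for Ehmt2, and -0.0151 for Kdm5b. The replicate block gave 0.0163 for Kdm1a and -0.0463 for that Kdm6b probe, and the authors' values 0.0028 for Kmt5a (ILMN_2658208). Male arrays only gave 0.0242 for Kmt5a (ILMN_2603825), 0.1106 for Ezh2, 0.0271 for Kdm1a, -0.0525 for Setdb1, and -0.2302 and -0.1327 for Ehmt2. Sex as a covariate gave 0.0694 for Ezh2 and -3.6e-05 for Setdb1. Without the pairs with Tgm4 signal the values were 0.1043 and 0.0983 for Kmt5a (ILMN_2658208 and ILMN_3001076) and -0.1193 for that Kdm6b probe.

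Leaving out 1 labelled animal gave ranges across 0 of -0.3024 to 0.226 for Ezh2, -0.11 to 0.0288 and -0.0625 to 0.0284 for Kmt5a (ILMN_2658208 and ILMN_3001076), -0.0139 to 0.1036 for Kdm6b (ILMN_3095624), -0.0539 to 0.1171 for Setdb1, -0.0202 to 0.0867 for Kdm5b and -0.009 to 0.0969 for Ehmt2 (ILMN_3147724). Leaving out 1 sex-matched pair gave -0.2843 to 0.2079 for Ezh2, -0.1317 to 0.0557 for Kdm1a, -0.2669 to 0.00052, -0.0974 to 0.0687 and -0.0798 to 0.06 for Kmt5a (ILMN_2603825, ILMN_2658208 and ILMN_3001076), -0.0804 to 0.1304 for that Kdm6b probe, -0.071 to 0.1341 for Setdb1, and -0.1733 to 0.2509 and -0.0883 to 0.1876 for Ehmt2 (ILMN_2705367 and ILMN_3147724).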
